A study of Homo sapiens with 16 samples.

Results

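The genes described here set what a cell does with pyruvate, the end product of glycolysis, and they are 10 of the 14108 genes listed in either table of the series. They were chosen by name as the kinases PDK1, PDK2 and PDK3 and the phosphatase PDP1 that control the pyruvate dehydrogenase complex, its E1 subunits PDHA1 and PDHB, the lactate dehydrogenase subunits LDHA and LDHB, and the mitochondrial pyruvate carrier subunits MPC1 and MPC2. All 10 are listed in both tables and read in all 16 libraries. The rule that names them uses no measured value, although they were chosen with earlier results of these data known.

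RNA was sequenced from LN229, an established human glioblastoma (GBM) cell line, in 2 experiments with 8 groups of 2 libraries. The first experiment compared the ischemic condition with the regular condition without any vehicle. The second treated cells in both cultures with DMSO (the vehicle), VX745 (an inhibitor of p38α) or MK25 (an inhibitor of MK2, a kinase activated by p38). Regular culture was DMEM with serum, and ischemic culture combined an oxygen-poor pouch with a DMEM made without glucose, glutamine and sodium pyruvate, to which low glucose, glutamine and serum were added back, so oxygen, nutrients, serum and the pyruvate of the medium changed together. All cells are the parental line without introduced mutants, so the groups stand for 1 tumor line, and the labels give neither the dose of the inhibitors nor the hours in ischemia for these libraries.

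Pyruvate has alternative fates. In the cytosol lactate dehydrogenase, a tetramer of LDHA and LDHB subunits, reduces it to lactate and regenerates NAD+, with LDHA-rich forms favoring lactate formation and LDHB-rich forms favoring the return to pyruvate. Pyruvate that enters mitochondria through MPC1 and MPC2 is oxidized to acetyl-CoA by the pyruvate dehydrogenase complex, which the PDK kinases switch off by phosphorylating PDHA1 and which the PDP phosphatases switch on again. PDK1 and LDHA are well-known targets of the hypoxia-inducible factor HIF-1, which binds a short core, ACGTG or GCGTG, in the DNA of its target genes, and tumors are known for making lactate.

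The DNA just upstream of 3 start sites is shown because LDHA and PDK1 rose in ischemic culture while LDHB fell. The windows are the 250 bases before the start of each gene's canonical transcript, from RefSeq (GRCh38.p14), with the last base before the start site counted as -1, and 9 of the 10 genes had such a window. Both strands were searched for ACGTG and GCGTG, and capitals mark each match on either strand. A CACGTG, which is also the E-box bound by MYC and other factors, holds ACGTG on both strands and counts as 2 matches. The stretch for LDHA is chr11:18394313-18394559 (plus strand, ending 4 bases before the start) and that for LDHB is chr12:21657972-21658092 (minus strand, -250 to -130). These 2 are the longest runs of their windows clear of annotated exons. For PDK1 the last 30 bases, chr2:172556060-172556089 (plus strand), are shown because they hold its matches, which lie in an annotated exon. Of the 250 bases of PDK1, 83 lie in annotated exons.
LDHA: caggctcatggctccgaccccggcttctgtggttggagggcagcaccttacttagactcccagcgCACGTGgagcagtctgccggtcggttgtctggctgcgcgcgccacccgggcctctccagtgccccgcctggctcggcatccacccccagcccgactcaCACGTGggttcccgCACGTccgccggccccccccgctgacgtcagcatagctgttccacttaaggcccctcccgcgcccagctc
PDK1: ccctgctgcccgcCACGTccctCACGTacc
LDHB: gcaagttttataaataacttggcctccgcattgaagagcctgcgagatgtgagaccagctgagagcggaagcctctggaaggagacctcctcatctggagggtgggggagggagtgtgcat
LDHA held 5 matches to ACGTG at 3 places, starting at -185, -87 and -73, and PDK1 held 2, at -17 and -8. LDHB held no match to either core in its 250 bases. PDHB, which fell, held 3 matches to ACGTG and 3 to GCGTG, and PDK2 held 2 and 1. PDK3, which rose, held 1 of each. MPC2 held neither core, and PDHA1 and MPC1 held GCGTG only (3 and 2 matches). Of all 35116 RefSeq promoter windows, 18.5% held ACGTG, 7.5% held it at least 2 times and 43.2% held either core. G and C made up 69.6% of the window of LDHA, 79.6% of that of PDK1 and 58% of that of LDHB. The shares over all windows were not matched for base content. A match is a description of the letters, and binding was not measured.

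Between 20122017 and 37562668 reads per library lay on listed genes, and the members were read at depths from 183 reads (the lowest library of PDK2) to 138270 reads (the highest of LDHA). In the second experiment, the ischemic libraries were the deeper on the whole (27239609 to 37562668 reads against 20122017 to 30228774), and the deposited values are scaled for depth. All 8 hypoxia marker genes, CA9 and VEGFA among them, rose in ischemic culture in the first experiment and with DMSO. Of all genes, 35.2% and 34.4% rose there. All 8 glioma line markers were listed, although GFAP was at a low level (-0.34 to 0.98 on the log2 scale as group means). None of the 3 endothelial and 3 epithelial markers was listed. Of the 8 glioma line markers 2 rose and 5 fell in ischemic culture without vehicle, beside 35.2% and 35.2% of all genes. Their median was -0.82 on the log2 scale (-0.01 for all genes). With DMSO 3 of these glioma line markers rose and 4 fell (median of -0.39), beside 34.4% and 35.2% of all genes. SOX2, a stem cell factor among them, changed by -3.11 and -2.23. Of the 2 neuronal markers listed SYT1 rose, by 2.58 without vehicle and 2.02 with DMSO, and SNAP25 (-0.47 and -0.24) did not pass. Of the macrophage markers CD68 rose by 0.77 and 0.94, and CSF1R, listed in the second experiment only, changed by -0.16 with DMSO and did not pass. The part of these markers in the results was not tested. Nothing in the labels says that the replicates are separate cultures, so p-values measure only the spread between these samples, which may be technical.

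In ischemic culture, the kinases PDK1 and PDK3 and the lactate-forming subunit LDHA rose, and the subunits PDHB and LDHB fell. PDK1 rose most in all 4 comparisons, and LDHA had a larger change than PDK3 except with MK25 (0.47 against 0.70). PDK1 was 21.4-fold higher without vehicle and 19.3-fold higher with DMSO, and LDHA was 3.13-fold and 2.44-fold higher. In the first experiment 4 members rose and 4 fell, beside 35.2% of all 13559 genes that rose and 35.2% that fell, and with DMSO 4 rose and 3 fell, beside 34.4% and 35.2% of 14024 genes. The number of members that moved was thus near that of genes at large, and what follows describes which members moved, which way and how far. A change in every cell and a change in the mix of living and dying cells cannot be told apart in bulk RNA.

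**Figure D1:**
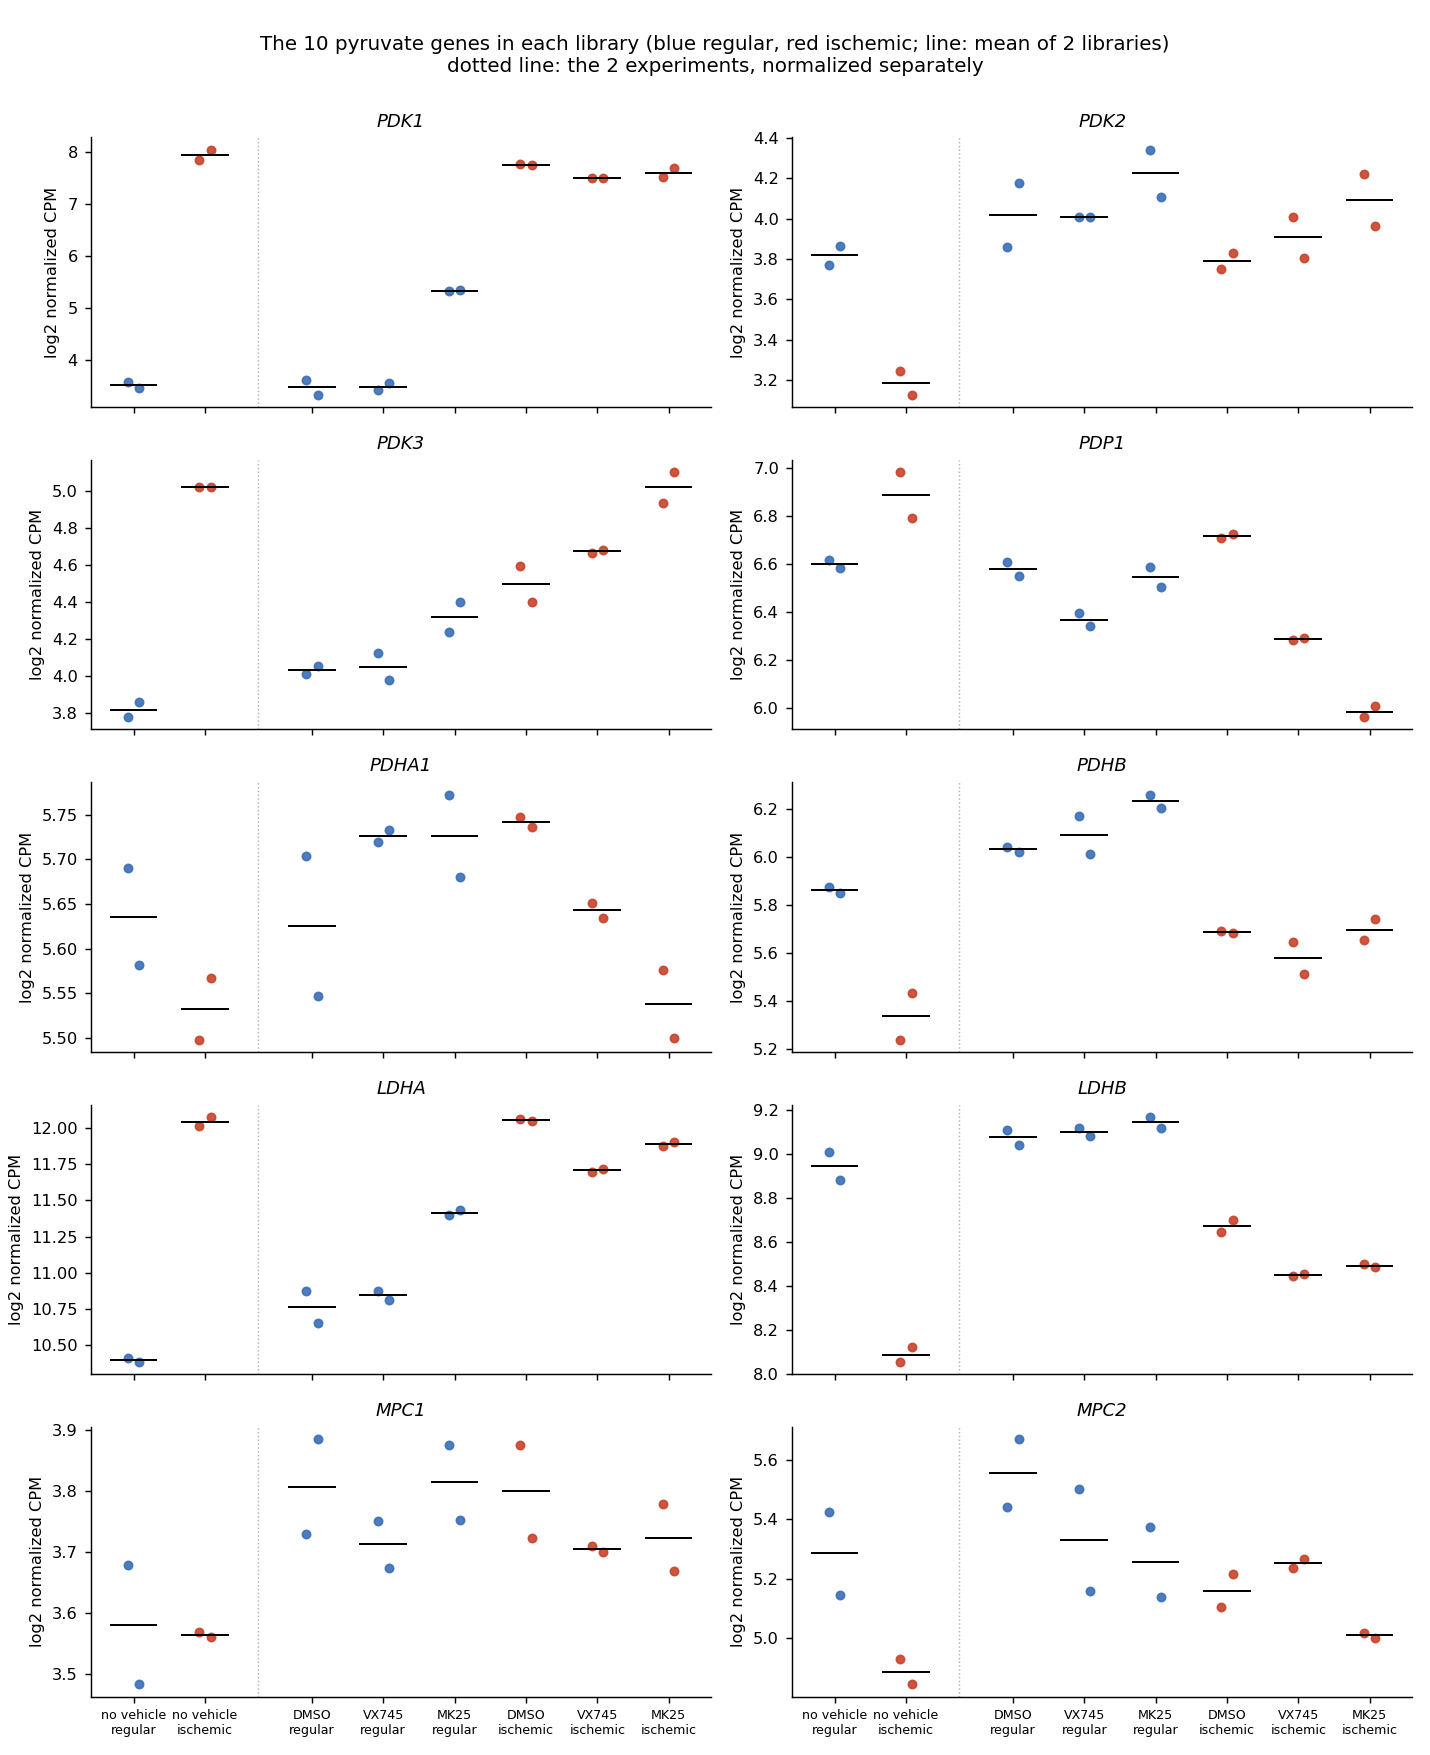
Level of each of the 10 genes in each of the 16 libraries, as log2 normalized CPM (vertical axis, scaled for each gene), by group (horizontal axis). Points are single libraries, blue for regular and red for ischemic culture, bars are means of 2 libraries, and the dotted line parts the 2 experiments, which were normalized separately; PDK1 and LDHA are higher in all ischemic libraries than in any regular library of the same experiment, with MK25 in regular culture in between.

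PDK1 (GRCh38 chromosome 2, 172555373 to 172724312, plus strand) encodes the pyruvate dehydrogenase kinase best known for its response to low oxygen. Its log2 CPM was 3.57 and 3.46 in the regular libraries of the first experiment and 7.84 and 8.04 in the ischemic ones. With DMSO it was 3.62 and 3.34 in regular and 7.77 and 7.74 in ischemic culture. The groups lay far apart, with a log2 fold change of 4.42 ± 0.09 (SE, n = 2 per group, adjusted p = 1.05e-12) in the first experiment. With DMSO the change was 4.27 ± 0.08 (adjusted p = 2.01e-17), with VX745 4.00 ± 0.08 and with MK25 2.26 ± 0.08. The rise passed the test with each treatment, and with MK25, where it was smaller, the regular libraries stood at 5.33 and 5.34.

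PDK3 (chromosome X, 24465286 to 24550466, plus strand), a kinase of the same family, also rose in each comparison of cultures. It went from 3.78 and 3.86 to 5.03 and 5.03 in the first experiment, a log2 change of 1.21 ± 0.09 (adjusted p = 2.16e-07), or 2.31-fold. With DMSO the change was 0.47 ± 0.09 (1.38-fold, adjusted p = 0.000235), and with VX745 and MK25 it was 0.62 and 0.70. The libraries of the cultures did not overlap under any treatment.

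PDK2 (chromosome 17, 50094737 to 50112152, plus strand), a kinase found in most tissues, fell in the first experiment alone among the 4 comparisons of cultures, a difference between experiments that was not tested. Its log2 CPM was 3.77 and 3.86 in regular and 3.24 and 3.13 in ischemic culture, a change of -0.63 ± 0.12 (adjusted p = 0.000397). With DMSO the change was -0.23 ± 0.12 (adjusted p = 0.0966), and it passed the test (-0.39, adjusted p = 0.0175) without the first regular DMSO library. With VX745 and MK25 the changes of -0.10 and -0.13 did not pass. PDK2 shares 2113 of its 5471 annotated exon bases with SAMD14 on the other strand, the libraries do not mark strand, and so their reads cannot be told apart. SAMD14 was listed at mean log2 CPM of 0.64 in regular and 1.42 in ischemic culture in the first experiment, which is below PDK2 and in the other direction.

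PDP1 (chromosome 8, 93916923 to 93926068, plus strand) encodes the phosphatase that opposes the kinases. It was 6.62 and 6.58 in regular and 6.98 and 6.79 in ischemic culture without vehicle, a log2 change of 0.29 ± 0.08 (adjusted p = 0.00516). The call was lost without the first ischemic library (0.19, adjusted p = 0.0537) and without a variance trend in limma (adjusted p = 0.053). With DMSO, PDP1 rose by 0.14 ± 0.06 (adjusted p = 0.0363), from 6.61 and 6.55 to 6.71 and 6.73, and that call was lost when either ischemic DMSO library or the second regular DMSO library was left out (adjusted p from 0.0938 to 0.162). It was also lost after quantile normalization (0.05, adjusted p = 0.39), with the libraries centred on their median (adjusted p = 0.0565) and in a fit to only the groups compared (adjusted p = 0.0526). With VX745 the change was -0.08 ± 0.06 and did not pass, and with MK25 PDP1 fell in ischemic culture, by 0.56 ± 0.06 on the log2 scale (adjusted p = 1.06e-07).

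PDHA1 (chromosome X, 19343927 to 19361718, plus strand), the E1 alpha subunit that carries the sites phosphorylated by the kinases, moved little. Its 16 values lay between 5.50 and 5.77. The changes in ischemic culture were -0.10 ± 0.08 without vehicle, 0.12 ± 0.07 with DMSO and -0.08 ± 0.07 with VX745, and none of these passed, although the change with DMSO did (0.19, adjusted p = 0.0269) without the first regular DMSO library. With MK25 it fell by 0.19 ± 0.07 (adjusted p = 0.0179), a call lost without the second ischemic MK25 library or the first regular MK25 library (adjusted p = 0.119 and 0.132).

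PDHB (chromosome 3, 58427630 to 58433832, minus strand), the E1 beta subunit, fell in ischemic culture in all 4 comparisons. Without vehicle it went from 5.88 and 5.85 to 5.24 and 5.44, a log2 change of -0.53 ± 0.08 (adjusted p = 0.000129). With DMSO it went from 6.04 and 6.02 to 5.69 and 5.69, a change of -0.34 ± 0.07 (adjusted p = 0.000219). With VX745 and MK25 the changes were -0.51 ± 0.07 and -0.53 ± 0.07, and the cultures did not overlap under any treatment.

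LDHA (chromosome 11, 18394563 to 18408425, plus strand), the subunit that favors lactate, rose in all 4 comparisons. It was 10.41 and 10.39 in regular and 12.01 and 12.07 in ischemic culture without vehicle, a log2 change of 1.64 ± 0.08 (adjusted p = 2.34e-09). With DMSO it went from 10.87 and 10.66 to 12.06 and 12.05, a change of 1.29 ± 0.07 (adjusted p = 2.84e-11). The rise was 0.86 ± 0.07 with VX745 and 0.47 ± 0.07 with MK25. After quantile normalization the change was 0.74 with DMSO and 0.53 with VX745, which still passed, and -0.14 (adjusted p = 0.123) with MK25. The size of the rise thus depends on the scaling. With MK25, quantile normalization was the only scaling tried that reversed its direction. LDHA has 6 named pseudogenes, none of them listed in the tables, and how reads shared with such copies were treated is not given in the sources used here.

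LDHB (chromosome 12, 21635342 to 21657842, minus strand), the other subunit, fell in all 4 comparisons, opposite to LDHA. Without vehicle it went from 9.01 and 8.89 to 8.05 and 8.12, a log2 change of -0.86 ± 0.07 (adjusted p = 3.3e-07), and was thus 1.82-fold lower. With DMSO it went from 9.11 and 9.04 to 8.64 and 8.70, a change of -0.40 ± 0.05 (adjusted p = 1.82e-06), which was -0.72 after quantile normalization. With VX745 and MK25 the changes were -0.65 ± 0.05 in both, and no library of 1 culture reached into the range of the other.

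The carrier subunits behaved differently from each other. MPC1 (chromosome 6, 166364919 to 166382940, minus strand) passed no test in any comparison of this series, with 16 values between 3.48 and 3.88. Its changes in ischemic culture were -0.02 without vehicle (95% interval -0.27 to 0.24) and -0.01 with DMSO (-0.21 to 0.20). MPC2 (chromosome 1, 167916675 to 167937072, minus strand) fell from 5.43 and 5.15 to 4.93 and 4.85 without vehicle, by 0.40 ± 0.10 (adjusted p = 0.00354), and from 5.44 and 5.67 to 5.10 and 5.22 with DMSO, by 0.39 ± 0.10 (adjusted p = 0.0025). Both calls rested on 1 library, since the change was -0.26 (adjusted p = 0.0781) without the first regular library and -0.28 (adjusted p = 0.0525) without the second regular DMSO library. With VX745 the change of -0.08 did not pass, and with MK25 the fall of 0.25 (adjusted p = 0.0438) was lost without any of 3 of the 4 libraries (adjusted p from 0.104 to 0.362), without a variance trend (adjusted p = 0.124) and with voom on reads recovered from the CPM (adjusted p = 0.0503). MPC2 shares 575 of its 2638 exon bases with DCAF6 on the other strand, whose mean log2 CPM was 5.03 in regular and 5.63 in ischemic culture, so reads of the shared stretch cannot be assigned.

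In the comparison of cultures with VX745, 3 members rose and 2 fell, beside 34% and 32.6% of all genes, and with MK25 3 rose and 5 fell, beside 33.5% and 33.7%.

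**Figure D2:**
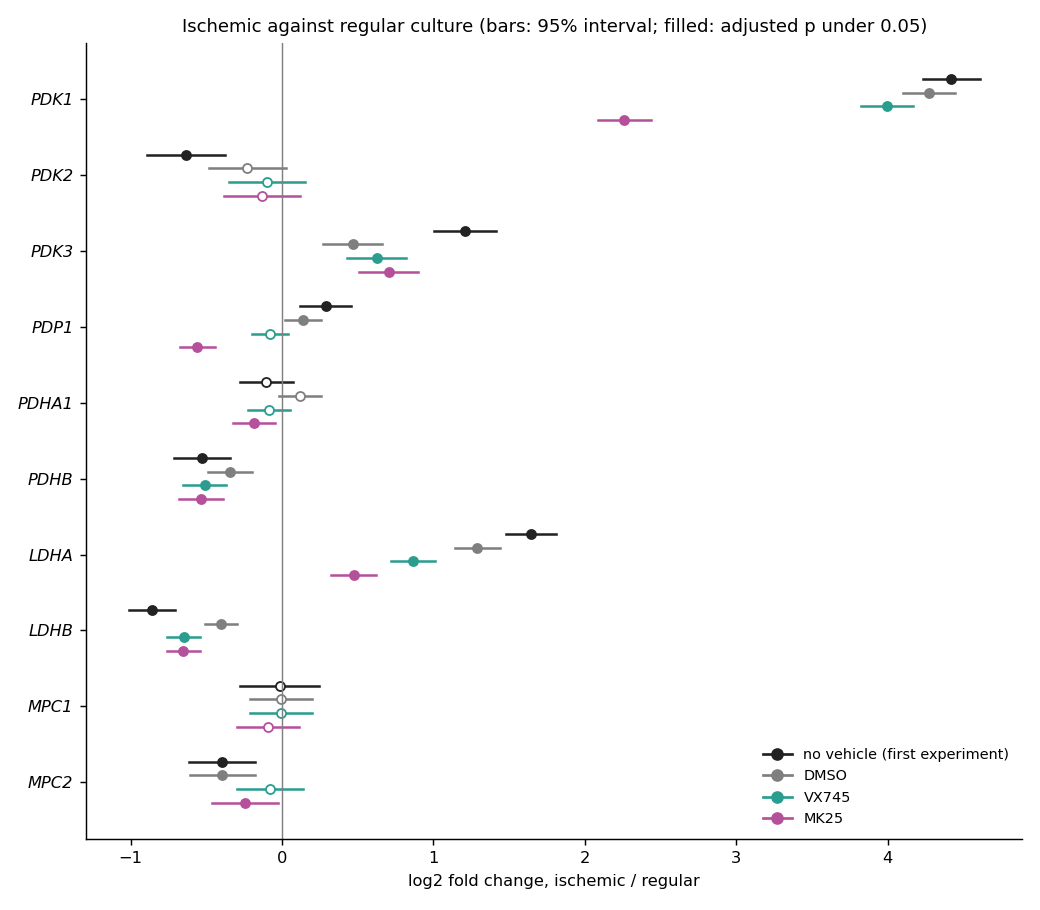
Log2 fold change of ischemic over regular culture (horizontal axis) for each gene (vertical axis) without vehicle and with DMSO, VX745 or MK25. Bars are 95% intervals from limma and filled points passed at adjusted p under 0.05; PDK1, PDK3 and LDHA lie to the right of 0 and PDHB and LDHB to the left under all 4 treatments, while PDP1 lies to the left with MK25 (-0.56).

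Paired genes (opposed enzymes or partner subunits) were also compared within each library, where a constant factor for the library cancels, although quantile normalization does not. The log2 difference of LDHA over LDHB in the second experiment was 1.61 to 2.31 in the 6 regular libraries and 3.25 to 3.42 in the 6 ischemic ones. The cultures did not overlap, and the ratio was 2.72-fold higher in ischemic culture (difference of 1.44, adjusted p = 0.0123, two-sided exact permutation test within treatments). That p follows from the smallest p this test can give, 0.00926, adjusted over 4 such differences, and after quantile normalization the difference was 1.14 with the same p. Within treatments the difference was 1.69 with DMSO, 1.51 with VX745 and 1.13 with MK25, and 2.50 in the first experiment, where 2 libraries against 2 cannot reach the threshold.

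PDK1 over PDP1, kinase over phosphatase, showed a wider gap. The log2 difference was -3.21 to -1.16 in the regular and 1.01 to 1.67 in the ischemic libraries of the second experiment, a change of 3.68 (12.8-fold, adjusted p = 0.0123, exact permutation test). It was 4.13 in the first experiment, 4.13 with DMSO, 4.08 with VX745 and 2.82 with MK25. The adjusted p again follows from the smallest p this test can give, as it does for PDHA1 over PDHB. PDK1 alone did not overlap between cultures under any treatment, so this p adds little to its call. Per base of the canonical transcripts (14072 and 4210 bases), PDK1 over PDP1 stayed below 0 in all 16 libraries, from -4.95 to -0.07. PDHA1 over PDHB moved by 0.41 (adjusted p = 0.0123, exact permutation test), since PDHB fell and PDHA1 moved little, and the change lay between 0.35 and 0.46 within treatments. MPC1 over MPC2 moved by 0.20 (adjusted p = 0.037, exact permutation test), with values of 0.39 with DMSO, 0.07 with VX745 and 0.15 with MK25, and this call was lost without any of 5 of the 12 libraries, with the replicate number as a block (adjusted p = 0.0938) and without strata for treatment (adjusted p = 0.0519).

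**Figure D3:**
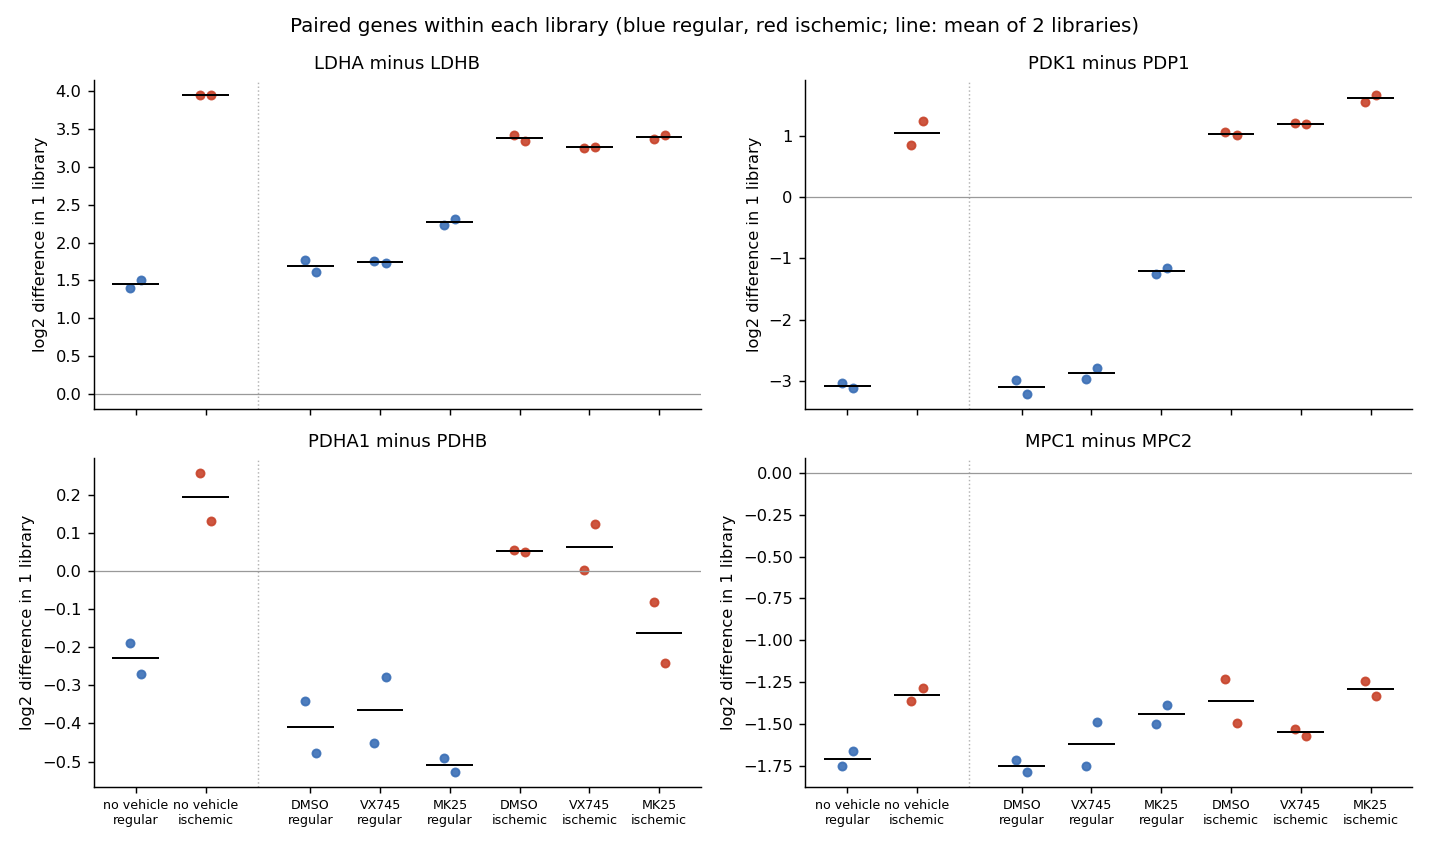
Log2 difference between paired genes within each library (vertical axis) by group (horizontal axis), blue for regular and red for ischemic culture, with bars at the mean of 2 libraries. LDHA over LDHB lies between 1.61 and 2.31 in regular and between 3.25 and 3.42 in ischemic libraries of the second experiment. PDK1 over PDP1 crosses 0 between cultures in both experiments on this scale, which is not adjusted for transcript length.

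Levels of related genes can be compared only per length of transcript, and that length is itself uncertain. Per base of the canonical transcripts, LDHA made up 61.4% of the sum of LDHA and LDHB in regular and 90% in ischemic culture of the first experiment (means, n = 2), and with DMSO 65.2% and 85.8%. With MK25 in regular culture its share was 73.7%. Taking the shortest annotated coding transcript in place of the canonical one gave 73.4% and 94% in the first experiment, so LDHA was the larger part under either choice.

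Among the 4 kinases, PDK4 included, the share of PDK1 rested strongly on that choice, because its annotated coding transcripts run from 1515 to 14072 bases. Those of PDK3 run from 1741 to 12720 bases. The canonical transcript is the longest for PDK1 and the shortest for PDK3. Per base of the canonical transcript, PDK1 was 5.92% of the kinase sum in regular and 44.1% in ischemic culture of the first experiment, and per base of the shortest it was 34% and 87.4%. Under both choices the ranges of the cultures did not overlap, and regular culture with MK25 lay above the other regular groups, at 13.9% and 57%. With DMSO the values were 5.1% and 46.6% per canonical transcript.

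The inhibitors were compared with DMSO within each culture. In regular culture MK25 raised PDK1 and LDHA and no other member passed, while no member passed with VX745. The members with MK25 were 2 that rose and 0 that fell, beside 7% and 5.21% of all 14024 genes, and at an unadjusted p under 0.05 they were 4 and 1. With VX745 they were 0 and 0 in limma, beside 0.178% and 0.157%, with 0 that rose and 2 that fell at an unadjusted p under 0.05 and 0 with voom on the recovered reads.

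With MK25 in regular culture PDK1 stood at 5.33 and 5.34 against 3.62 and 3.34 with DMSO, a log2 change of 1.86 ± 0.08 (3.62-fold, adjusted p = 2.83e-11). LDHA stood at 11.40 and 11.43 against 10.87 and 10.66, a change of 0.65 ± 0.07 (1.57-fold, adjusted p = 6.48e-06). For both genes the 2 MK25 libraries lay above every other regular library and below every ischemic one of that experiment. Of the hypoxia markers, 7 of 8 also rose with MK25 in regular culture, beside 7% of all genes (median log2 change of 1.14, with 0.00 for all genes). None of these markers passed with VX745, beside 0.178% of all genes that rose and 0.157% that fell. PDK3 (0.29, adjusted p = 0.0523), PDHB (0.20, adjusted p = 0.0628) and MPC2 (-0.30, adjusted p = 0.0668) missed the threshold, and MPC2 passed without the first regular MK25 library or the first regular DMSO library (adjusted p = 0.0401 and 0.0355).

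With VX745 in regular culture the change of PDK1 was 0.01 (95% interval -0.16 to 0.19) and that of LDHA was 0.08 (-0.07 to 0.23). PDP1 had the smallest p, with a change of -0.21 ± 0.06 (adjusted p = 0.109). These intervals leave room for small changes and not for one the size of that of PDK1 with MK25.

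In ischemic culture the phosphatase PDP1 fell with both inhibitors. It stood at 6.71 and 6.73 with DMSO, 6.29 and 6.29 with VX745 and 5.96 and 6.01 with MK25, log2 changes of -0.43 ± 0.06 (adjusted p = 3.46e-05) and -0.73 ± 0.06 (adjusted p = 4.43e-08), or 1.35-fold and 1.66-fold lower. The 3 groups did not overlap, and both calls held without any single library. The 2 comparisons share their DMSO libraries.

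VX745 in ischemic culture lowered 4 members and raised 0, beside 14.9% and 14% of all genes. Besides PDP1 these were LDHA (12.06 and 12.05 with DMSO, 11.70 and 11.72 with VX745, a change of -0.35 ± 0.07, adjusted p = 0.00151), LDHB (-0.22 ± 0.05, adjusted p = 0.00375) and PDK1 (-0.26 ± 0.08, adjusted p = 0.0242). The call of PDK1 was lost without any 1 of the 4 libraries compared (adjusted p from 0.0727 to 0.12) and that of LDHB without the second ischemic DMSO library (adjusted p = 0.0535). After quantile normalization the changes of LDHA (-0.09, adjusted p = 0.417), LDHB (-0.07, adjusted p = 0.322) and PDK1 (-0.16, adjusted p = 0.182) did not pass, and PDK1 also missed the threshold without a variance trend (adjusted p = 0.0905). In the same comparison 6 of the 8 hypoxia markers fell (median of -0.38).

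MK25 in ischemic culture raised 2 members and lowered 3, beside 19.8% and 22% of all genes. PDK3 rose from 4.60 and 4.40 to 4.94 and 5.10, by 0.52 ± 0.09 (adjusted p = 0.000251), and PDK3 thus had its highest level of the second experiment there. PDK2 (0.31, adjusted p = 0.0491) rose, and PDHA1 (-0.20, adjusted p = 0.0198) and LDHB (-0.18, adjusted p = 0.00934) fell, by small steps. Leaving out 1 library ended the call of PDK2 for 3 of the 4 libraries compared, the second MK25 library being the exception (adjusted p from 0.0882 to 0.376). Its call was also lost under every other scaling or model tried except the fits without genes below 1 CPM on average or with only the groups compared (adjusted p from 0.0504 with voom to 0.131 after quantile normalization). Leaving out 1 library ended that of PDHA1 for the second MK25 library and either DMSO library (adjusted p from 0.0707 to 0.128). That of LDHB was lost without the second MK25 library (-0.17) or the second DMSO library (-0.15). After quantile normalization LDHB moved to 0.01 (adjusted p = 0.908), and this was the only scaling tried that reversed its direction. PDK1 (-0.15, adjusted p = 0.144) and LDHA (-0.17, adjusted p = 0.0635) did not pass, although LDHA did with voom (adjusted p = 0.036) and in a fit to only the groups compared (adjusted p = 0.00635), and its change was 0.03 (adjusted p = 0.794) after quantile normalization.

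**Figure D4:**
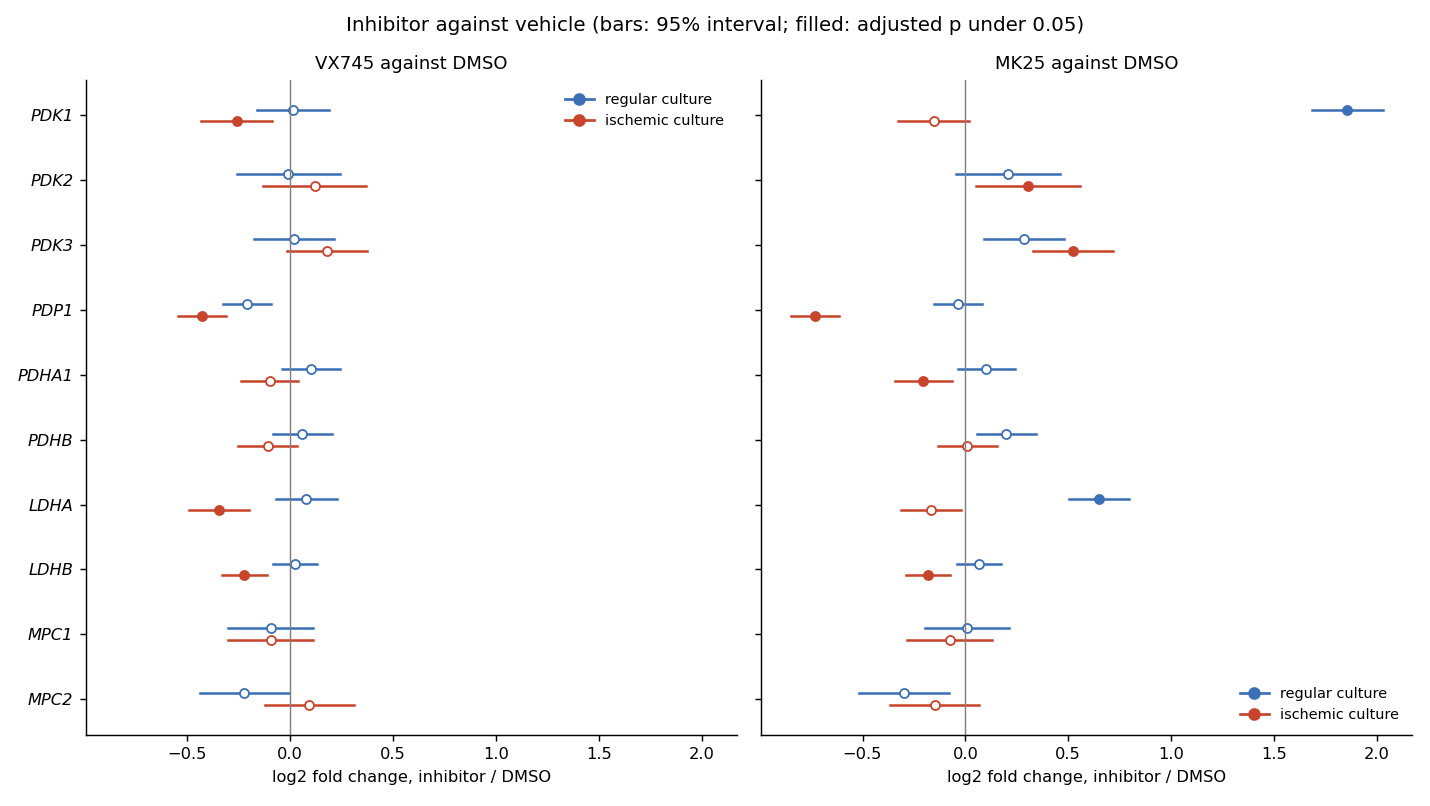
Log2 fold change of each inhibitor over DMSO (horizontal axis) for each gene (vertical axis), with VX745 on the left and MK25 on the right, blue in regular and red in ischemic culture. Bars are 95% intervals and filled points passed at adjusted p under 0.05; with MK25, PDK1 lies at 1.86 in regular and -0.15 in ischemic culture, and PDP1 at -0.03 and -0.73.

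The difference between an inhibitor's effects in the 2 cultures was tested as an interaction. With MK25, 5 members passed, beside 24.4% of all genes. The effect on PDK1 was lower in ischemic than in regular culture by 2.01 ± 0.12 on the log2 scale (adjusted p = 7.08e-09), that on LDHA by 0.82 ± 0.10 (adjusted p = 2.1e-05) and that on PDP1 by 0.70 ± 0.08 (adjusted p = 1.1e-05). These came about in unlike ways, since PDK1 and LDHA rose in regular culture and PDP1 fell in ischemic culture. PDHA1 (-0.30, adjusted p = 0.0238) and LDHB (-0.25, adjusted p = 0.0189) passed too, but each lost its call without any of several single libraries (adjusted p from 0.0561 to 0.104 for PDHA1, without either ischemic DMSO library, the second ischemic MK25, the first regular MK25 or the second regular DMSO library, and from 0.0562 to 0.0894 for LDHB, without the second of each DMSO pair, the second ischemic MK25 or the first regular MK25 library). LDHB was at -0.04 (adjusted p = 0.715) after quantile normalization, and PDHA1 missed the threshold without a variance trend (adjusted p = 0.0539).

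With VX745, 2 members passed the interaction, beside 11.8% of all genes. PDP1 (-0.22 ± 0.08, adjusted p = 0.0813) was not among them, although it passed with the libraries centred on their median (-0.24, adjusted p = 0.0495). The members that passed were LDHA (-0.43 ± 0.10, adjusted p = 0.0114) and LDHB (-0.25 ± 0.07, adjusted p = 0.0358). LDHA lost its call without the first ischemic VX745 or the first ischemic DMSO library (adjusted p = 0.0611 and 0.0521), and LDHB lost it without any of 6 of the 8 libraries, the exceptions being the second regular VX745 and the first regular DMSO library (adjusted p from 0.0745 to 0.138). Neither passed after quantile normalization (-0.20, adjusted p = 0.266, for LDHA and -0.07, adjusted p = 0.579, for LDHB) or without a variance trend (adjusted p = 0.0553 and 0.0859). PDK1 (-0.27, adjusted p = 0.135) passed without the first regular DMSO library (-0.42, adjusted p = 0.015).

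In the order of levels in the second experiment, PDK1 and LDHA ran the same way: regular DMSO and regular VX745, which overlapped, then regular MK25, ischemic VX745, ischemic MK25 and ischemic DMSO, each without overlap with the next. PDP1 ran from ischemic MK25 over ischemic VX745, regular VX745, regular MK25 and regular DMSO (the last 2 overlapping) to ischemic DMSO. For MPC1 every group overlapped its neighbor in the order.

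Other genes of the same reactions were counted by lists, to be read beside the 35.2% of all genes that rose and 35.2% that fell without vehicle, and the 34.4% and 35.2% with DMSO. The rest of the pyruvate dehydrogenase complex and its regulators (6 of 7 genes listed) held 0 that rose and 3 that fell without vehicle (median of -0.22 on the log2 scale, -0.01 for all genes), and 0 and 4 with DMSO (median of -0.33, -0.01 for all genes). The E2 subunit DLAT fell by 0.54 and 0.34, the E3 subunit DLD by 0.35 and 0.33 and the second phosphatase, PDP2, by 0.69 and 1.17. PDK4 moved by 0.02 without vehicle and did not pass, and it fell by 0.52 with DMSO. With MK25 in ischemic culture 3 of these genes rose (PDP2 by 0.84, PDK4 by 0.68 and PDPR, a regulatory subunit of the phosphatase, by 0.38) and 1 fell (DLD by 0.14), beside 19.8% and 22% of all genes, and PDP1 fell there.

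Of 7 listed genes for the complex's lipoate and thiamine cofactors, 4 fell without vehicle and 4 with DMSO (beside 35.2% of all genes in both), with 2 that rose without vehicle (median -0.33) and 1 with DMSO (median -0.77). The thiamine transporter SLC19A3 fell by 2.11 and 1.56 and the octanoyl transferase LIPT2 by 1.37 and 1.41, while LIAS, the lipoyl synthase, rose by 0.45 and 0.53.

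Of the genes of other reactions that make or use pyruvate (7 of 10 listed), 6 rose and 0 fell without vehicle (median of 0.65) and 5 and 0 did with DMSO (median of 0.72), beside 35.2% and 34.4% of all genes that rose. PCK2, the mitochondrial phosphoenolpyruvate carboxykinase, rose by 3.22 and 3.29, the alanine transaminase GPT2 by 2.75 and 2.42 and the malic enzyme ME1 by 1.98 and 1.08. Pyruvate kinase PKM rose by 0.64 and 0.72 and pyruvate carboxylase PC by 0.50 and 0.70. The malic enzyme ME2 (0.01 and 0.06) did not pass, and the alanine transaminase GPT rose without vehicle (0.65) and did not pass with DMSO (0.25).

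Of the lactate transport genes, 3 of the 4 listed rose in both experiments (medians of 1.13 and 0.89). SLC16A3, the transporter MCT4 known for lactate export, rose by 3.64 and 2.83, SLC16A1 (MCT1) by 1.98 and 1.29 and their chaperone BSG by 0.28 and 0.50. With MK25 in regular culture SLC16A3 was the only 1 of the 4 to pass, with a rise of 1.41, beside 7% of all genes that rose. In ischemic culture MK25 lowered SLC16A1 by 0.32, BSG by 0.20 and SLC16A7 by 0.33, beside 22% of all genes that fell.

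The 4 genes that make acetyl-CoA by other routes or use it were mixed, with 1 that rose and 3 that fell without vehicle (median of -0.28) and 1 and 2 with DMSO (median of -0.10). ACSS2, the cytosolic acetyl-CoA synthetase, rose by 0.43 and 0.50, and its mitochondrial counterpart ACSS1 fell by 1.05 and 0.70. Of 5 further dehydrogenase and carrier genes the tables list LDHD, the D-lactate dehydrogenase, which rose by 1.27 and 1.94 from a low level (9 reads in each regular library without vehicle and 2 and 7 with DMSO).

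**Figure D5:**
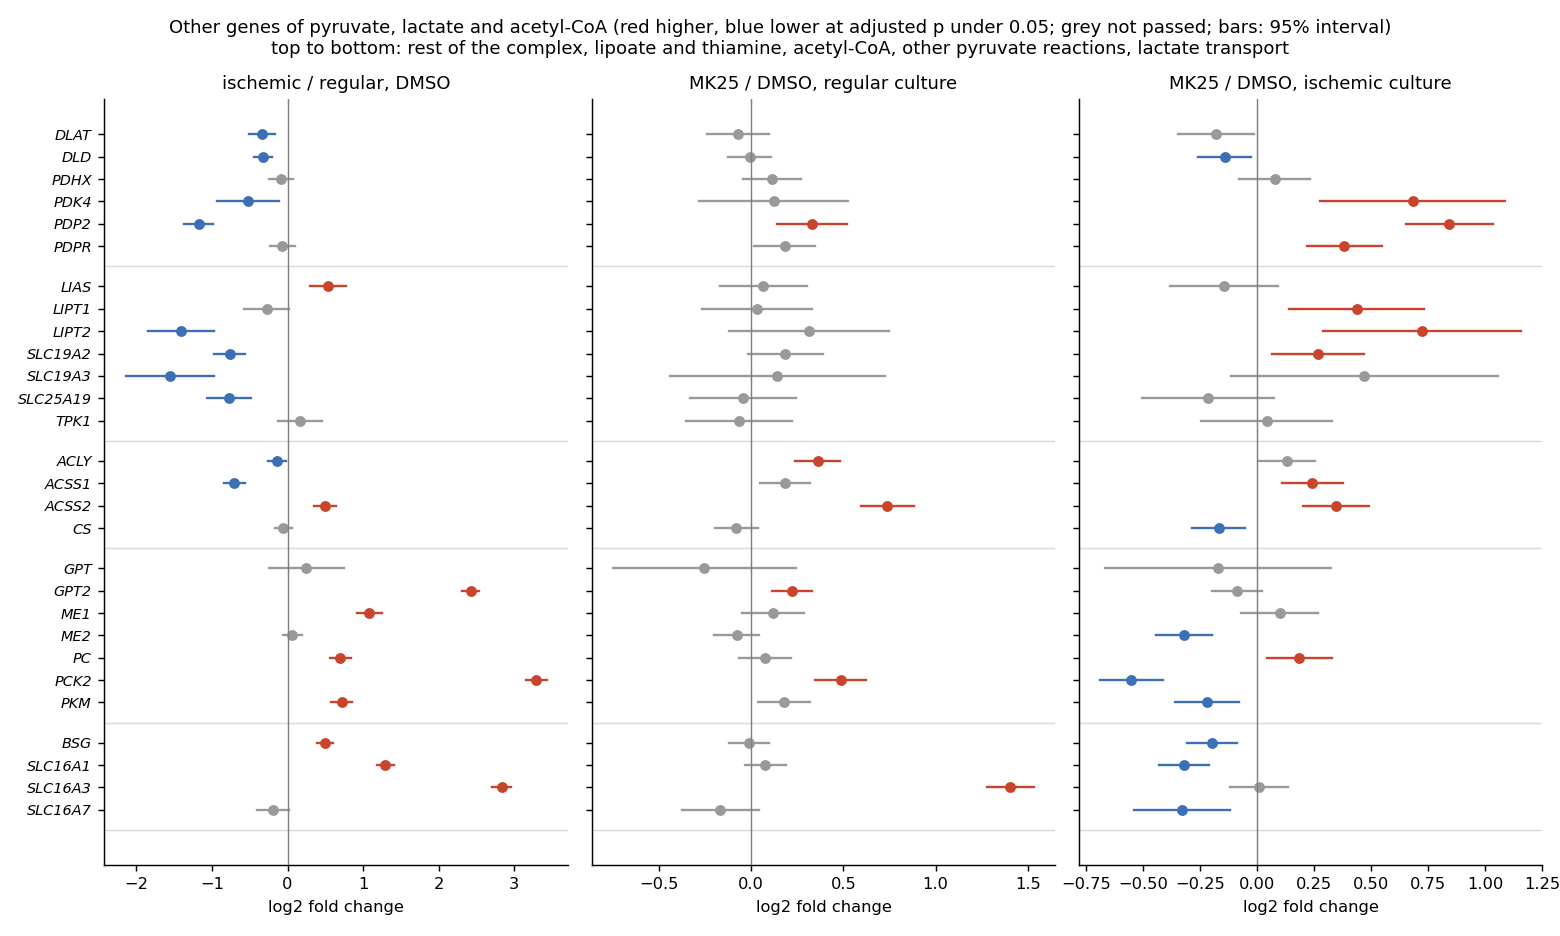
Log2 fold change (horizontal axes, a scale for each panel) of the other listed genes of the complex, its cofactors, acetyl-CoA, pyruvate and lactate transport, for ischemic over regular culture with DMSO (left), MK25 over DMSO in regular culture (middle) and in ischemic culture (right). Bars are 95% intervals, red passed as higher, blue as lower and grey did not pass; SLC16A3 stands out in the middle panel at 1.41 and PDP2 in the right panel at 0.84.

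The genes whose pattern over the 6 groups of the second experiment lay nearest to each member were found among 10052 genes, by the root mean square difference of the 6 group means after centering. Nearest to PDK1 were BNIP3 (0.0841 on the log2 scale), AK4 (0.152) and CCNG2 (0.156), where 0 would be the same pattern. In the first experiment, which did not enter that choice, BNIP3 changed by 4.16, AK4 by 3.48 and CCNG2 by 4.44 in ischemic culture, beside 4.42 for PDK1. Nearest to LDHA were NARF (0.0656), PPME1 (0.091) and PGAM1 (0.0993), and in the first experiment these changed by 0.98, 1.00 and 1.00, beside 1.64 for LDHA. LDHB lay nearest to PSPC1 (0.0215), UQCRFS1 (0.0222) and PSMD13 (0.0259), which changed by -0.73, -0.67 and -0.59 in the first experiment, beside -0.86.

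The nearest gene was GART for PDP1 (0.0461), GOLGA1 for PDK3 (0.0258), CUL7 for PDK2 (0.0259), COPB2 for PDHB (0.0277), SRSF9 for PDHA1 (0.0171), YIPF1 for MPC1 (0.0187) and MBNL1 for MPC2 (0.0471). In the first experiment GART changed by 0.00 beside 0.29 for PDP1, CUL7 by -0.0045 beside -0.63 for PDK2, and GOLGA1 by 0.85 beside 1.21 for PDK3. COPB2 changed by -0.49 beside -0.53 for PDHB, SRSF9 by -0.08 beside -0.10 for PDHA1, YIPF1 by -0.20 beside -0.02 for MPC1 and MBNL1 by -0.24 beside -0.40 for MPC2.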

How the data were processed

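RNA of LN229 cells was converted with the SMART-Seq mRNA HT and Nextera XT kits, which do not mark strand, and sequenced as paired reads. Per the submitters' processing notes and the study's methods, the authors trimmed reads, aligned them to GRCh38 with HISAT2 in Galaxy and used edgeR, and versions, read counter and annotation are not given in the sources used here. They deposited log2 normalized CPM per gene and library, in a table of 13559 genes for the first experiment and of 14024 for the second. The tables were normalized separately, so levels were not compared between experiments. Symbols were matched by Entrez identifier to RefSeq (99.4% and 99.3% matched). All values checked (100%) lay within 0.02 of whole reads once the logarithm was undone, which gave the reads per gene, and each library had 11 to 80 genes at 3 reads or fewer.

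The deposited log2 values were tested as they are with limma (version 3.58.1, R 4.3.3), 1 mean per group, empirical Bayes with a variance trend, the 12 libraries of the second experiment in 1 fit, in place of the authors' count test. Tests were two-sided, p-values were adjusted per comparison across the whole table (Benjamini-Hochberg), and a gene passed at adjusted p under 0.05. Log2 differences between paired genes were tested by exact permutation of the culture labels within treatments (216 permutations). In simulated data, genes given a log2 change of 1 were recovered in 96% of cases without vehicle (13559 genes) and in 95% with DMSO (14024 genes). There, 14 and 10 unchanged genes were called. The simulation gave all genes a common spread and changed few of them, unlike these data, and changes smaller than 1 were not simulated.

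All 10 members are named, other genes by fixed lists, and neighbors as the 3 nearest patterns among genes with a mean log2 CPM of at least 3. The members and lists were chosen with earlier results of these data known. Alternatives were other thresholds and filters, log2(CPM + 1), median centering, quantile normalization, no variance trend, voom on recovered reads, only the groups compared, a replicate block and leaving out each library. Figures were drawn with matplotlib 3.10.9. Precision is limited by 2 libraries per group.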

Additional observations from a re-analysis of the deposited data

Results flagged for a closer look

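These members had an inhibitor effect that differed between ischemic and regular culture by the interaction test (log2 scale, ischemic minus regular). With MK25 the differences were -2.01 for PDK1, -0.817 for LDHA, -0.697 for PDP1, -0.305 for PDHA1 and -0.248 for LDHB. With VX745 they were -0.425 for LDHA and -0.246 for LDHB. Among all 14024 genes, 24.4% passed this test with MK25 and 11.8% with VX745. After quantile normalization the calls of LDHA and LDHB with VX745 and of LDHB with MK25 were lost. Without a variance trend those of LDHA and LDHB with VX745 and of PDHA1 with MK25 were lost. No outlier test was made, since each group holds 2 libraries.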

How the results depend on the processing

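Over 100 fold changes of members and their alternatives (1470 in all), 1319 kept their direction and their side of the threshold, 34 changed sign but passed in neither form, 96 were no longer past it, 19 newly passed it and 2 called changes reversed. The 2 that reversed did so under quantile normalization, LDHA in ischemic against regular culture with MK25 (-0.1362) and LDHB with MK25 against DMSO in ischemic culture (0.008286), and the cause was not tested. A fold threshold (2-fold for cultures, 1.5-fold otherwise) left 3 members without vehicle, 2 with DMSO, 1 with VX745 and 1 with MK25, then 0 for VX745 and 1 for MK25 against DMSO in ischemic culture, and 0 and 3 for the interactions of VX745 and MK25. Unadjusted p gave 2 members for VX745 and 5 for MK25 in regular culture and 6 for the VX745 interaction. Quantile normalization gave 1 member for VX745 and 3 for MK25 in ischemic culture and 0 for the VX745 interaction, which was also 0 without a variance trend. Leaving out 1 library gave 7 to 8 members without vehicle, 5 to 9 with DMSO, 5 to 5 with VX745 and 6 to 8 with MK25 for the cultures. It gave 0 to 0 and 2 to 3 for VX745 and MK25 in regular culture, 2 to 3 and 2 to 4 in ischemic culture, and 0 to 3 and 3 to 5 for their interactions. A lone library left in a group is assumed to vary like the others. The log2 differences ranged from 1.387 to 1.526 for LDHA over LDHB, 3.514 to 3.924 for PDK1 over PDP1, 0.3846 to 0.4574 for PDHA1 over PDHB and 0.1679 to 0.2474 for MPC1 over MPC2.

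Replicate numbers did not pair the samples of the second experiment (correlations of deviations from -0.27 to 0.32 over 15 pairs, 4 above 0.1), and the first has 1 pair (0.27). With the replicate block, 8, 7, 5 and 8 members passed between cultures (without vehicle, DMSO, VX745, MK25), as without it, and PDK2 with MK25 in ischemic culture was not called (adjusted p = 0.0511). MPC1 over MPC2 (0.204) was not past the threshold with the block, nor in a test without treatment strata. Depth did not limit the members, all read at 183 reads or more.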
